A study of Mus musculus with 2 samples.

Results

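The genes described here are 40 genes of mitosis and the spindle: cyclins and their kinase, mitotic kinases, checkpoint proteins, kinesins, centromere and kinetochore proteins and cytokinesis factors. They were chosen by name, and every probe set whose single platform gene symbol was one of them was taken. Of the 40, 39 had at least 1 such probe set, 88 probe sets in all, out of 18193 genes and 45037 probe sets in the series. Ccnb1, the gene of cyclin B1, had no such probe set, so only its promoter was analysed here. The arrays measured total RNA of lineage-marker-negative thymocytes from C57BL/6J mice, 1 array titled TKO and 1 titled DKO. Lineage-positive cells had been removed with Dynabeads, and the title of the series names DN cells, double-negative thymocytes that lack CD4 and CD8. By the series' design text, TKO cells carry the Lck-Cre transgene on a Cdkn2a-/- Ring1A-/- Ring1B fl/fl background, and DKO cells carry the same 3 alleles without Cre. The samples' own genotype entries differ from this: they give loss of Ring1A, Ring1B and Cdkn2a for TKO, and loss of Ring1A and Ring1B alone for DKO. Lck-Cre is a recombinase driven by a T-lineage promoter, so other cells in the preparation would keep the floxed Ring1B allele. The labels give no age, no number of mice and no time in culture, although their growth entry mentions standard medium.

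Mitosis is driven by cyclin-dependent kinase 1 (Cdk1) bound to cyclins A and B, with Polo-like and Aurora kinases acting beside it. The spindle checkpoint holds cells until every kinetochore is attached, after which the anaphase-promoting complex marks securin and cyclin B for destruction and the cell divides. Transcripts of most of these genes accumulate in G2 and mitosis and are low in resting cells, so their level in bulk RNA follows how many cells are dividing. Early double-negative thymocytes include strongly dividing stages, and Cdkn2a encodes inhibitors that slow the cell cycle upstream of this programme.

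The deposited values are MAS5 signals, an array intensity on a linear scale. A signal counted as measured when it was above the floor, the median of all probe sets on its array (71.8 on the TKO array and 68.8 on the DKO array). Each array had a trimmed mean of 497. With 1 array per genotype there is no spread between animals and no test, and a gene was counted as different at 2-fold or more, a log2 ratio of 1 either way. The label checks were mixed. Cdkn2a had a signal of 18.5 on the TKO array and 679 on the DKO array, Ring1 had 147 and 133, and Rnf2 (Ring1B) had 4384 and 4149, in the same array order. The DKO array thus shows Cdkn2a, although Cdkn2a is null in both genotypes of the design text. Both arrays show Rnf2, which the samples' own entries give as lost in both. By the design text, Cre would delete Rnf2 in T-lineage cells of TKO alone, yet its log2 ratio was 0.08. Ring1 was above the floor on both arrays, although both sources give Ring1A as lost in both genotypes. The sources used here do not say whether these probe sets fall inside the deleted parts, and a probe set outside them checks nothing, so the arrays are called by their labels. Xist had 16502 on the TKO array and 124 on the DKO array, and Y-linked Eif2s3y and Kdm5d had 55.3 and 30.4 on the TKO array and 1711 and 652 on the DKO array. Sex and label therefore cannot be told apart in any comparison below. The Cdkn2a signal also went with the label, in the direction of the samples' own entries. Any difference in Cdkn2a state therefore cannot be told apart from sex or label either. Cell type markers differed as well. All 9 measured T lineage markers had negative log2 ratios, with a median of -0.65 and a summed signal of 63685 on the TKO array and 96388 on the DKO array. Of 7 measured B lineage markers 6 passed 2-fold, higher on the TKO array, with a median of 1.99 and a summed signal of 25090 on the TKO array and 11082 on the DKO array. No defining T or B marker with a probe set was below the floor on both arrays. Myeloid markers were 2 higher and 1 lower of 6 measured, with Itgam and Cd14 below the floor on both arrays. The part of these cell types in the values below was not tested.

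Mitosis and spindle genes had similar signals on both arrays. Of the 40, 38 were measured, all on both arrays, and 0 were 2-fold higher and 0 were 2-fold lower on the TKO array. Over all 11280 genes measured, 4.11% passed 2-fold, 3.58% higher and 0.532% lower, and at that rate few of 38 genes would pass, so the count of 0 does not by itself set the group apart. Their median log2 ratio was -0.10, against -0.03 for all genes measured, and 25 of 38 ratios were negative (65.8%, against 53.5% of all genes). By their brightest probe sets, none of the 38 reached 1.5-fold either, a size that 11.9% of all genes passed, 8.66% higher and 3.27% lower. As the mean over probe sets 1 was 1.5-fold higher and 1 lower, and with a floor at the 25th percentile 1 was higher. The 38 genes were bright, with signals of 577 to 13807 on the TKO array and 703 to 18243 on the DKO array, so the floor did not touch any of them. Among the 5706 genes whose mean signal was at least that of the dimmest measured member, 637, the median log2 ratio was -0.06, 59.7% of ratios were negative, 2.05% passed 2-fold and 5.85% passed 1.5-fold. In bulk RNA, fewer dividing cells and less RNA per dividing cell cannot be told apart.

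**Figure D1:**
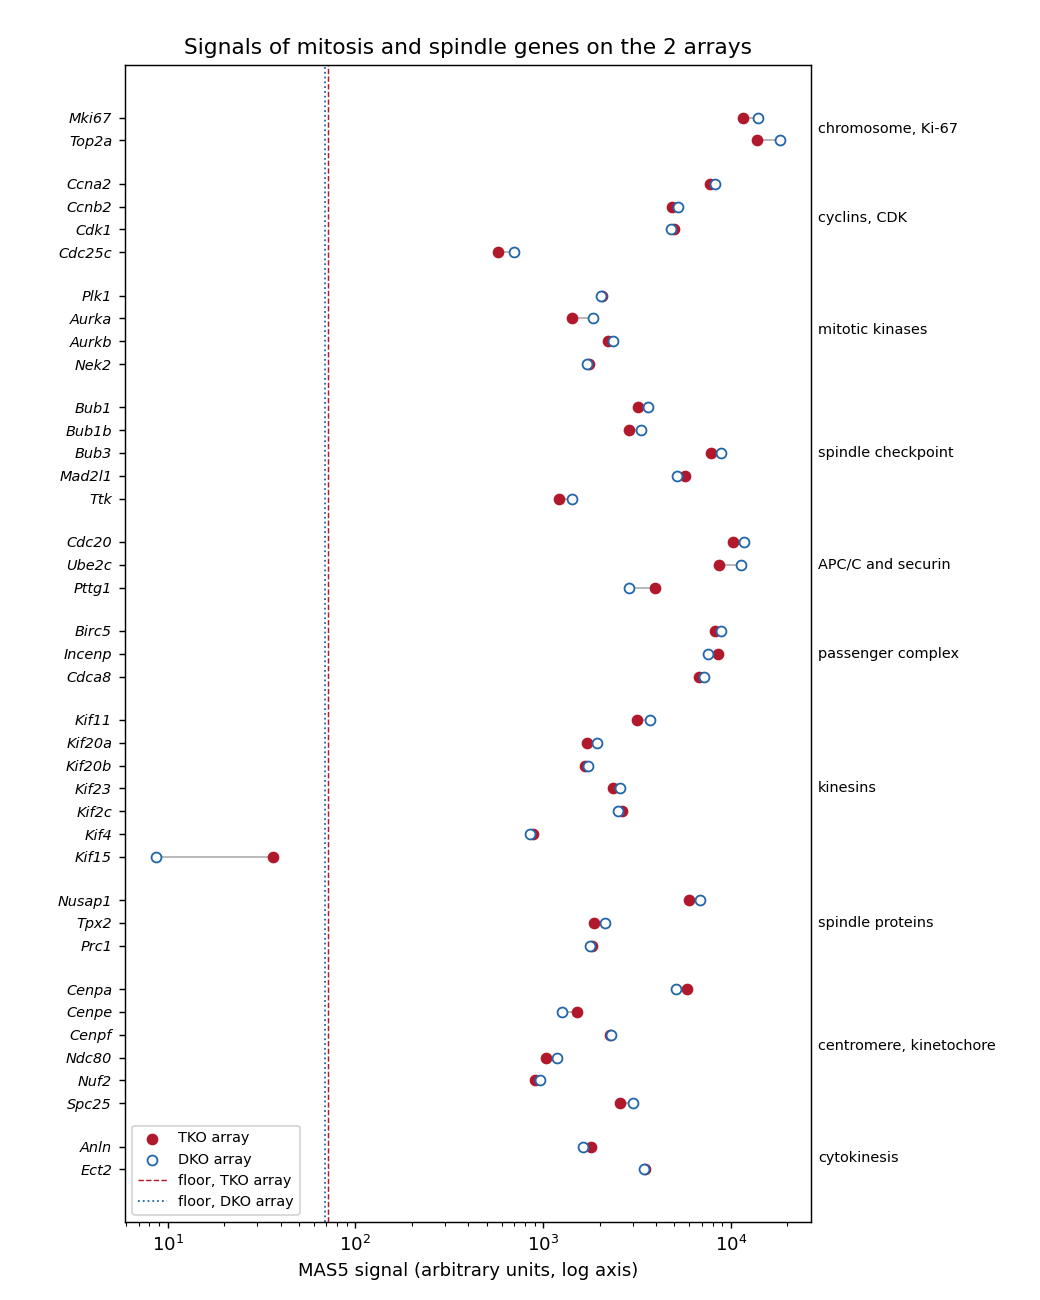
MAS5 signal (x axis, log scale) of the brightest probe set of each gene, by role down the page, with the TKO array as filled red points, the DKO array as open blue points and the floor of each array as a vertical line. The points of each gene lie close together and far above the floor of 71.8 or 68.8, except for Kif15, which lies below the floor on both arrays; positions of different genes are not comparable, since each probe set has its own response.

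Their promoters share sequence that the choice of genes did not use. Many mitotic genes carry a cell cycle homology region (CHR), bound by the DREAM and MuvB complexes, and CCAAT boxes, bound by NF-Y, close to the transcription start. The RefSeq promoter table (build GRCm38.p6), with 250 bases before and 50 after the start, held 34 of the 40 genes, and the first listed start of each gene was used. Both strands were searched for TTTGAA, the letters of the CHR, and for the CHR variant TTTAAA. The same was done for the CCAAT box, for the E2F site TTTCCCGC and for a second E2F site written as TTTGGCGC. TTTGAA was present in 25 of 34 promoters (73.5%), against 18.1% of all 27025 promoters in the table and 11.6% of the 9165 promoters of genes measured on these arrays. Promoters of the other mitosis genes described below held it in 43 of 108 (39.8%). CCAAT was present in 24 of 34 (70.6%), against 37.9% of all promoters, but also in 58.3% of the other mitosis promoters and 64.5% of DNA replication promoters, so these letters are not particular to the group. TTTGAA together with 2 or more CCAAT matches was held by 15 of 34 (44.1%), against 17.6% of other mitosis promoters, 6.45% of replication promoters and 2.19% of all promoters. TTTAAA was in 9 of 34 (26.5%, against 13.2%). The E2F letters TTTCCCGC were in 0 of 34 (against 1.11%) and TTTGGCGC in 1 of 34, that of Kif15 (2.94%, against 0.537%). A match is a description of letters, and no binding was measured here.

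The promoters shown here hold TTTGAA and at least 3 CCAAT matches, and are those of the G2/M cyclin Ccnb2, of its kinase Cdk1, and of Top2a and Ube2c, which had the most negative log2 ratios of the group. Capitals mark TTTGAA and CCAAT or their reverse complements TTCAAA and ATTGG. The palindromic run CCAATTGG in Ube2c counts once on each strand.
Top2a, chr11:99024140-99024439, minus strand: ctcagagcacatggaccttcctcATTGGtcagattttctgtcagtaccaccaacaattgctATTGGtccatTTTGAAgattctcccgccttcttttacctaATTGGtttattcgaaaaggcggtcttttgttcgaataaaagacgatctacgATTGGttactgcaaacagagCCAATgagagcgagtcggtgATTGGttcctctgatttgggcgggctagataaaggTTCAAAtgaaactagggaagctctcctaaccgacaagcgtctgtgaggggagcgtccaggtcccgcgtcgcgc
Ube2c, chr2:164769679-164769978, plus strand: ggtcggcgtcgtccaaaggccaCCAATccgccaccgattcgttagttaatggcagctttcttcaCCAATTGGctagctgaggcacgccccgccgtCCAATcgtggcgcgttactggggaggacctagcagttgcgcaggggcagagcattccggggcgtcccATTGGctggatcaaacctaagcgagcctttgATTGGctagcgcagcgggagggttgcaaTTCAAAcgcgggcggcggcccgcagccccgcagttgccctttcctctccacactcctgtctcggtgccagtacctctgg
Ccnb2, chr9:70421505-70421804, minus strand: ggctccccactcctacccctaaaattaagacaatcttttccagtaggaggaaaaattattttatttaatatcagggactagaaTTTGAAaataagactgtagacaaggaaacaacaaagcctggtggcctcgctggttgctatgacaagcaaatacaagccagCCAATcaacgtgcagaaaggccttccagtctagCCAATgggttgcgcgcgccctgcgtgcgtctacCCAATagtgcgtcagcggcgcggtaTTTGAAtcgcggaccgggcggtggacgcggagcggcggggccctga
Cdk1, chr10:69352863-69353162, minus strand: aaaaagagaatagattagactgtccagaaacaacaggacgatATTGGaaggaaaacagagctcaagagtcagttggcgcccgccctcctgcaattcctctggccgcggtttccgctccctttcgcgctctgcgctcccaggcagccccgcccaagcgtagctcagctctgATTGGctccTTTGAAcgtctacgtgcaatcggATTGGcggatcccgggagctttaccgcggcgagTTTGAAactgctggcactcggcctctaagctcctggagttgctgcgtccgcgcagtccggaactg
In all 4, the CHR match nearest to the start lies downstream of every CCAAT match. It lies at -21 bases from the start in Top2a, -27 in Ube2c, 6 in Ccnb2 and -13 in Cdk1. Mki67, Cdca8 and Ect2 also hold TTTGAA and at least 3 CCAAT matches but are not shown. The order is the same in Mki67 and Ect2, but in Cdca8 a CCAAT match at 20 lies beyond the TTTGAA at 15. For contrast, the promoters of Pttg1, the gene with the highest log2 ratio, and of the checkpoint gene Mad2l1 hold no match to the CHR, its variant or the CCAAT box in this window.
Pttg1, chr11:43425932-43426231, minus strand: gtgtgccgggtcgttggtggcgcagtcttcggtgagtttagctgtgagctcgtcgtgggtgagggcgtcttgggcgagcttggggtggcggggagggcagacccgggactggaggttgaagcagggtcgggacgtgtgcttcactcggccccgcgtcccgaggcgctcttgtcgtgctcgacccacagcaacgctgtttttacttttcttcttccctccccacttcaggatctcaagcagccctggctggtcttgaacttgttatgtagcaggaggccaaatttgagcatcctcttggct
Mad2l1, chr6:66534971-66535270, plus strand: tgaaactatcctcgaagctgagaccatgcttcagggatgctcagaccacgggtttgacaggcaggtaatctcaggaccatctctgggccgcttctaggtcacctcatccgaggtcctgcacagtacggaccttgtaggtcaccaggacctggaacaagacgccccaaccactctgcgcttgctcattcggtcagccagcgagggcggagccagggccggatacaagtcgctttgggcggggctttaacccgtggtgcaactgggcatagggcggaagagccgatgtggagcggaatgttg
No match in these windows says nothing of sites elsewhere. Nusap1 and Nuf2 also held none of these 3 motifs, so 4 of 34 promoters lacked them all. The log2 ratios of these 4 genes had both signs, 0.47 for Pttg1, 0.13 for Mad2l1, -0.19 for Nusap1 and -0.10 for Nuf2.

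The matches lay close to the start. Of 33 TTTGAA matches in the 34 promoters, 25 were within 50 bases of the start, and their median position was 4 bases after it. Of 56 CCAAT matches 53 were upstream, with a median position of -64 bases. In the 50 bases after the start, 44.1% of the mitosis and spindle promoters had TTTGAA, against 2.23% of all promoters, whereas from -250 to -200 bases the shares were 2.94% and 4.04%. CCAAT was most frequent from -50 to the start, in 47.1% of these promoters and 9.64% of all.

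**Figure D2:**
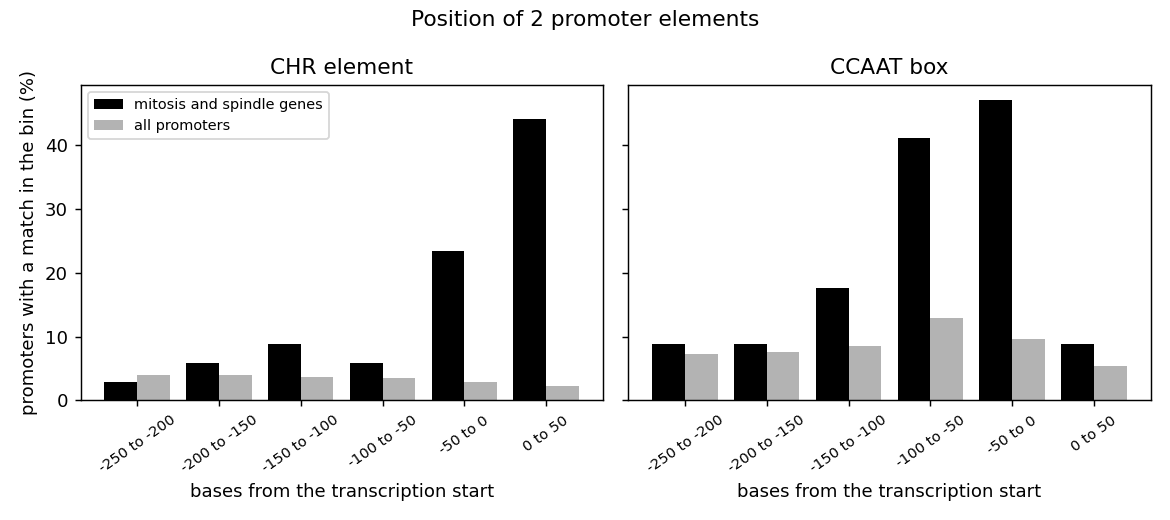
Share of promoters (y axis, %) with a match to the cell cycle homology region (left) or the CCAAT box (right) in each 50-base bin from the transcription start (x axis), for 34 mitosis and spindle promoters (black) and all 27025 promoters (grey). The black bars of the homology region stand highest after the start (44.1%) and those of the CCAAT box just before it (47.1%), while the grey bars stay below 13% in every bin.

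Log2 ratios of genes with and without the CHR letters were close. The 24 measured genes with TTTGAA had a median log2 ratio of -0.11 (range -0.40 to 0.19), and the 8 measured genes without it had -0.02 (range -0.19 to 0.47). The 15 with TTTGAA and 2 or more CCAAT matches had a median of -0.18. In the other mitosis genes described below the order was the reverse. The 42 with TTTGAA had a median of -0.05, the 64 without it -0.09, and the 19 with TTTGAA and 2 or more CCAAT matches -0.06. Across all measured genes, the 1062 with TTTGAA had a median of -0.06 with 5.27% past 2-fold, and the 8103 without it had -0.03 with 3.73% past 2-fold. The 167 measured genes with TTTGAA and 2 or more CCAAT matches had a median of -0.08, with 5 genes 2-fold higher and 0 lower. These made 2.99% past 2-fold, against 4.11% of all genes measured (3.58% higher and 0.532% lower).

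The markers most used to score dividing cells, a group of 2 genes, had the lowest median of any role group, -0.34. This median moved to -0.21 after quantile normalization and to -0.19 after removal of a lowess trend of ratio on signal. Mki67, whose product Ki-67 coats mitotic chromosomes, had 11561 on the TKO array and 13988 on the DKO array, a log2 ratio of -0.28. Top2a, the topoisomerase that untangles sister chromatids, had 13807 on the TKO array and 18243 on the DKO array, 1.32-fold lower (log2 ratio -0.40), and its second measured probe set gave -0.54. Both were lower on the TKO array, by less than 1.5-fold for the representative probe sets. The remaining Top2a probe set was below the floor on both arrays.

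Cyclins and their kinase gave nearly equal signals. Ccna2, the cyclin of S phase and G2, had 7752 on the TKO array and 8207 on the DKO array (log2 ratio -0.08), and its second probe set gave -0.07. Ccnb2, a B-type cyclin that activates Cdk1, had 4861 on the TKO array and 5219 on the DKO array (log2 ratio -0.10). Cdk1 itself had 4981 on the TKO array and 4779 on the DKO array (log2 ratio 0.06). These 3 genes differed by 1.07-fold or less between the arrays. Cdc25c, the phosphatase that removes the inhibitory phosphates of Cdk1, had 577 on the TKO array and 703 on the DKO array (log2 ratio -0.29). Its probe sets disagreed in sign, since the other gave 0.19.

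Among the mitotic kinases Aurka had the ratio farthest from 0. Aurka, the Aurora kinase of centrosomes and spindle poles, had 1431 on the TKO array and 1836 on the DKO array, 1.28-fold lower (log2 ratio -0.36). Its other probe set was below the floor on both arrays, so this value rests on 1 probe set. Plk1, the Polo-like kinase of mitotic entry, had 2045 on the TKO array and 2036 on the DKO array (log2 ratio 0.01). Aurkb, the kinase of the chromosomal passenger complex, had 2204 on the TKO array and 2355 on the DKO array (log2 ratio -0.10, and 0.07 in a second probe set). Nek2, a kinase of centrosome separation, had 1760 on the TKO array and 1704 on the DKO array (log2 ratio 0.05), with 2 further measured probe sets at 0.21 and -0.12. The 4 kinases thus lay on either side of 0.

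Spindle checkpoint genes had a median log2 ratio of -0.18, and 4 of 5 were lower on the TKO array. Bub1, a kinase at unattached kinetochores, had 3203 on the TKO array and 3617 on the DKO array (log2 ratio -0.18). Bub1b, which encodes BubR1 of the mitotic checkpoint complex, had 2881 on the TKO array and 3336 on the DKO array (log2 ratio -0.21), and its 3 probe sets ran from -0.23 to -0.19. The Bub1 probe sets did not agree: a dimmer one, with 448 on the TKO array and 279 on the DKO array, gave 0.68. Bub3, the partner of both, had 7852 on the TKO array and 8878 on the DKO array (log2 ratio -0.18), while its other 4 probe sets were positive, up to 0.28. Ttk, the kinase Mps1 that starts checkpoint signalling, had 1217 on the TKO array and 1423 on the DKO array (log2 ratio -0.23). Mad2l1, the checkpoint protein that captures Cdc20, was the member on the positive side, with 5665 on the TKO array and 5183 on the DKO array (log2 ratio 0.13). As the mean over all probe sets the median of this role group was 0.11, so its sign depended on which probe sets were read.

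Genes of anaphase onset ranged from -0.40, a value that Top2a shares, to 0.47. Ube2c, the ubiquitin-conjugating enzyme of the anaphase-promoting complex, had 8634 on the TKO array and 11370 on the DKO array, 1.32-fold lower (log2 ratio -0.40). Pttg1, which encodes securin, the inhibitor of separase, had 3952 on the TKO array and 2859 on the DKO array, 1.38-fold higher (log2 ratio 0.47). This was the largest difference among the 38 genes. Its other probe sets gave 0.12 and 0.19, and without probe sets of the cross-hybridising types Pttg1 was at 0.12. Cdc20, the activator that the checkpoint restrains, had 10286 on the TKO array and 11760 on the DKO array (log2 ratio -0.19), and its 3 probe sets ran from -0.19 to 0.28.

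Chromosomal passenger subunits, which guide Aurora B to centromeres and then to the midzone, had log2 ratios between -0.11 and 0.18. Birc5 (survivin) had 8211 on the TKO array and 8835 on the DKO array (log2 ratio -0.11). Incenp, the scaffold of the complex, had 8530 on the TKO array and 7519 on the DKO array (log2 ratio 0.18), but its 3 other measured probe sets were at or below 0.00, down to -0.43. Cdca8 (borealin) had 6770 on the TKO array and 7187 on the DKO array (log2 ratio -0.09), and all 3 of its probe sets were negative. With Aurkb at -0.10, all 4 subunits of the complex lay within 1.13-fold between the arrays.

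The kinesins, the motors of the spindle, had a median log2 ratio of -0.09 over 6 measured genes, from -0.22 to 0.07. Kif11, which pushes spindle poles apart, had 3165 on the TKO array and 3691 on the DKO array (log2 ratio -0.22), with 0.29 in its dimmest measured probe set. Kif20a, a motor of cytokinesis, had 1705 on the TKO array and 1925 on the DKO array (log2 ratio -0.18). Kif23, the motor of centralspindlin, had 2367 on the TKO array and 2556 on the DKO array (log2 ratio -0.11). All 3 were slightly lower on the TKO array. Kif20b, which also acts in cytokinesis, had 1663 on the TKO array and 1733 on the DKO array (log2 ratio -0.06). A dimmer Kif20b probe set gave 0.19. Kif2c, a kinesin that depolymerises microtubules at centromeres, had 2629 on the TKO array and 2503 on the DKO array (log2 ratio 0.07), while its 3 other probe sets were negative, down to -0.46. Kif4, a chromosome-bound kinesin, is the single measured gene of the group on the X chromosome. It had 883 on the TKO array and 855 on the DKO array (log2 ratio 0.05), beside the Xist signals given above. Kif15 had 36.3 on the TKO array and 8.67 on the DKO array, below the floor on both, and so has no ratio.

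Spindle-associated proteins gave 2 negative ratios and 1 near 0. Nusap1, a microtubule-bundling protein, had 6009 on the TKO array and 6868 on the DKO array (log2 ratio -0.19). Tpx2, which activates Aurora A on the spindle, had 1868 on the TKO array and 2144 on the DKO array (log2 ratio -0.20). Its target kinase Aurka was at -0.36. Of the other Tpx2 probe sets, a dim one gave 0.24 and the rest were negative. Prc1, which cross-links microtubules of the midzone, had 1814 on the TKO array and 1774 on the DKO array, and both of its probe sets gave 0.03.

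Centromere and kinetochore genes had ratios of both signs, 4 negative and 2 positive. Cenpa, the histone H3 variant that marks centromeres, had 5797 on the TKO array and 5088 on the DKO array (log2 ratio 0.19). A dimmer Cenpa probe set gave -0.01. Cenpe, a kinetochore kinesin, had 1520 on the TKO array and 1256 on the DKO array (log2 ratio 0.28), although a second probe set gave -0.06. By their brightest probe sets, Cenpa and Cenpe were higher on the TKO array by 1.21-fold or less. Cenpf, a large kinetochore protein, had 2279 on the TKO array and 2288 on the DKO array (log2 ratio -0.01), with a dim probe set at -0.69. The microtubule-binding NDC80 complex gave 3 negative ratios: Ndc80 had 1038 on the TKO array and 1184 on the DKO array (log2 ratio -0.19), and Nuf2 had 903 on the TKO array and 965 on the DKO array (log2 ratio -0.10). Spc25, the third of these subunits, had 2553 on the TKO array and 3015 on the DKO array (log2 ratio -0.24). A dimmer Spc25 probe set, with 96.8 on the TKO array and 191 on the DKO array, gave -0.98, the value nearest to 2-fold among all measured probe sets of these genes.

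Of the role groups, cytokinesis was the one with all ratios above 0. Kif20a (log2 ratio -0.18) and Kif20b (-0.06), described above as acting in cytokinesis, were grouped with the kinesins. Anln (anillin), a scaffold of the contractile ring, had 1795 on the TKO array and 1629 on the DKO array (log2 ratio 0.14, and 0.23 in a dimmer probe set). Ect2, the exchange factor that switches on RhoA at the cell equator, had 3482 on the TKO array and 3452 on the DKO array (log2 ratio 0.01). The group has 2 genes, and neither of its representative probe sets exceeded 1.10-fold.

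**Figure D3:**
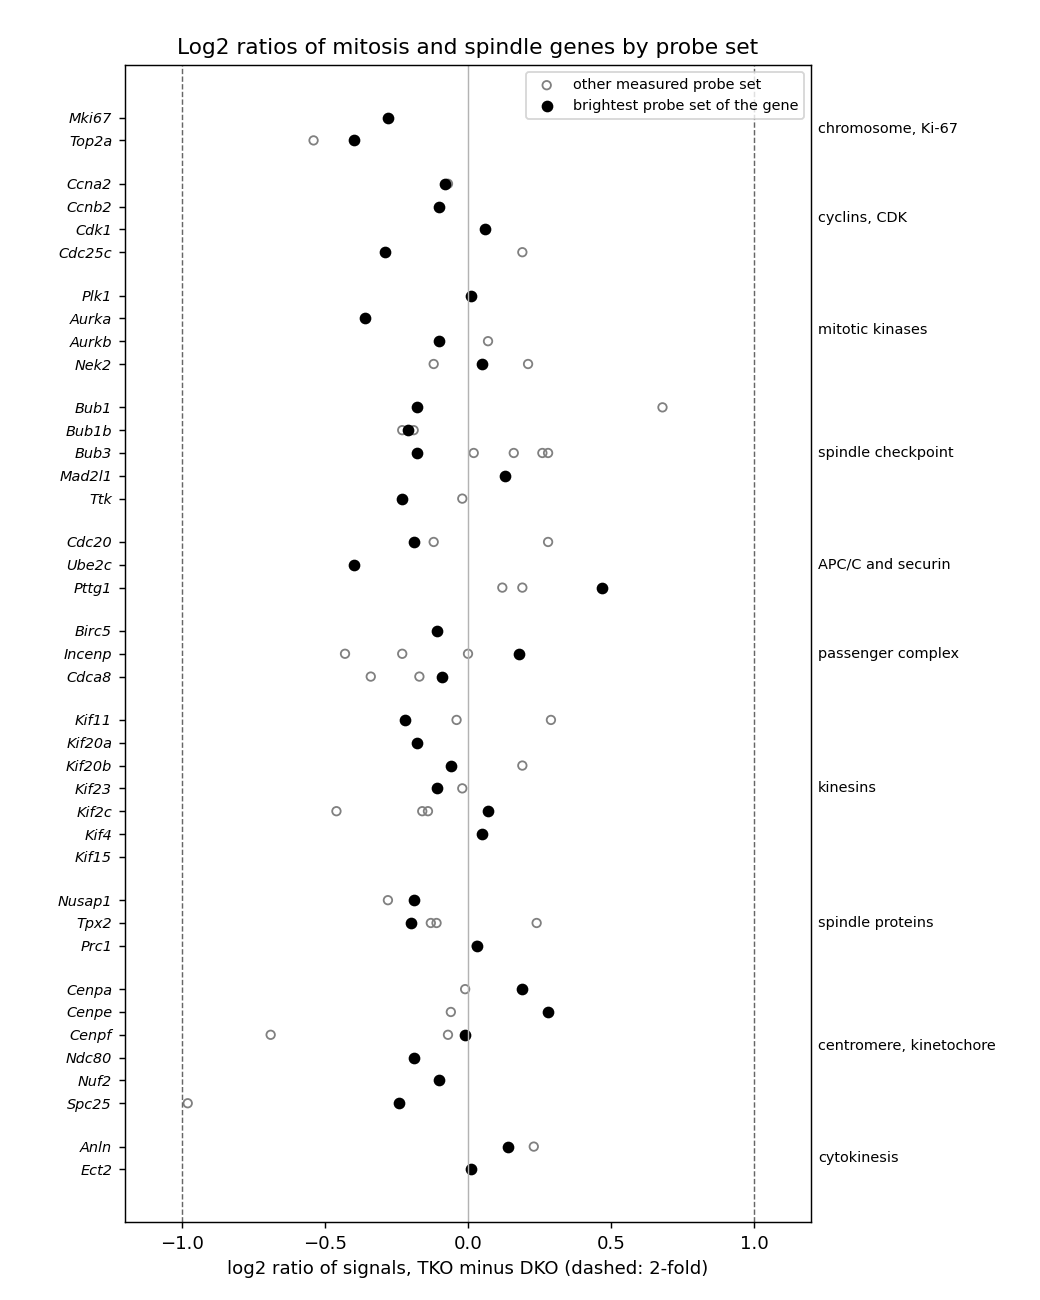
Log2 ratio of signals, TKO minus DKO (x axis), for each gene by role down the page, with the brightest probe set as a filled point, other measured probe sets as open points and 2-fold as dashed lines. Filled points run from -0.40 to 0.47, and the open points that stand farthest out belong to Spc25 (-0.98), Cenpf (-0.69) and Bub1 (0.68); Kif15 has no point.

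Probe sets of the same gene often disagreed in log2 ratio. Over 25 of these genes with 2 or more probe sets measured on both arrays, the pooled SD of the log2 ratio within a gene was 0.24, and over 4794 genes of the whole array it was 0.28. The SD of the ratio across the 38 genes, from the brightest probe set of each, was 0.19. The SD within a gene also takes in dimmer probe sets, so the 2 measures are not alike. An SD within a gene holds no error between animals, RNA preparations or arrays. By the SD of the whole array, 33 of the 38 genes lay within 0.28 of a log2 ratio of 0. The 5 beyond it were Pttg1, Top2a, Ube2c, Aurka and Cdc25c. Mki67 and Cenpe lay at this limit, and beyond the 0.24 of the mitosis and spindle genes. In 13 of the 25 genes with several measured probe sets, the ratios lay on both sides of 0. Of 79 measured probe sets, 0 passed 2-fold and 3 passed 1.5-fold, against 3.48% and 11.8% of all 20400 measured probe sets with 1 gene. The 3 were those of Spc25, Cenpf and Bub1 named above.

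Other mitosis genes, taken from lists of the same pathway, had a similar median. Of 131 listed, 128 were measured, with a median log2 ratio of -0.08, 80 negative ratios, and 0 genes past 2-fold either way. At 1.5-fold, 2 were higher and 2 were lower, against 8.66% and 3.27% of all genes, but as the mean over all probe sets 4 were higher and 7 lower. The lower ones were Gtse1, a microtubule protein of G2, with 318 on the TKO array and 578 on the DKO array (log2 ratio -0.86), and Kntc1, a kinetochore checkpoint protein, with 1070 and 1696 in the same array order (log2 ratio -0.66). The higher ones, E2f5 and Lin9, belong to the factors described below. Condensin, the complex that compacts mitotic chromosomes, had a median of -0.13 over 8 genes, with Ncapg at -0.21 (0.21 in its other probe set), Ncapg2 at -0.18 and Ncapd2 at -0.17. Cohesin, shugoshin and separase genes had a median of -0.01 over 14 genes. Espl1, the protease separase that securin inhibits, had 991 on the TKO array and 1305 on the DKO array (log2 ratio -0.40), opposite in sign to Pttg1. In this list Pds5a was at -0.41, with another probe set at 0.24, and the cohesin subunit Rad21 at 0.30, with probe sets from -0.09 to 1.18. The core of the anaphase-promoting complex had a median of -0.14 over 15 genes, with Cdc23 at -0.56, Anapc11 at 0.29 and Anapc16 at -0.25. Each of these 3 had a probe set of the other sign, at 0.10 for Cdc23, -0.17 for Anapc11 and 0.35 for Anapc16. Other centromere and kinetochore genes had a median of -0.12 over 28, 22 of them negative, among them Cenpm at -0.44 and Cenpi at -0.36. Other spindle, kinesin and cytokinesis genes had a median of -0.05 over 25, with the centriole gene Sass6 at -0.55 (0.50 in its other probe set), the kinesin Kif18a at 0.49 and Haus1 at -0.31. Other G2/M regulators had a median of 0.02 over 17, with Pimreg at -0.32 and the phosphatase Cdc25a at -0.26.

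Factors that drive or repress mitotic genes had log2 ratios from -0.52 to 0.77 over 21 measured genes. Their median was -0.04, with 10 ratios positive and 11 negative. The SD across genes was 0.36, against 0.19 for the mitosis and spindle genes. It was 0.46 over all genes measured and 0.36 over the 5706 genes at least as bright as the dimmest measured member. Foxm1, the forkhead activator of G2/M genes, had 244 on the TKO array and 352 on the DKO array (log2 ratio -0.52). Mybl2 (B-Myb), which acts with it, had 467 on the TKO array and 563 on the DKO array (log2 ratio -0.27, and -0.55 in a second probe set). For Foxm1 the value depended on the processing: other probe sets reached -0.06, quantile normalization gave -0.59, and the mean over all probe sets turned the sign, to a bound of 0.60. Lin9, a core subunit of MuvB, had 897 on the TKO array and 580 on the DKO array, 1.55-fold higher (log2 ratio 0.63). Lin54, the subunit that binds the CHR, had 1091 on the TKO array and 1003 on the DKO array (log2 ratio 0.12, and 0.01 in a second probe set). Rbl2 (p130), the pocket protein of the repressive DREAM complex in resting cells, had 979 on the TKO array and 672 on the DKO array (log2 ratio 0.54, and 0.73 in a second probe set). E2f5, a repressor-type E2F that binds p130, had 550 on the TKO array and 322 on the DKO array, 1.71-fold higher (log2 ratio 0.77), but another of its probe sets gave -0.11 and it did not pass 1.5-fold as the mean over probe sets. E2f1, an activator of S phase genes, had 402 on the TKO array and 459 on the DKO array (log2 ratio -0.19, and -0.54 in a second probe set). The other Rbl and E2f genes of this list had both signs, with Rbl1 at -0.33, E2f3 at -0.33 and E2f4 at -0.20. E2f2 was at 0.26, E2f7 at 0.21 and E2f8 at -0.08.

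DNA replication genes, the list most like the mitosis genes, had a more negative median. Of 38 measured, 35 had negative ratios, with a median of -0.23 and a range of -0.69 to 0.37, and 0 passed 2-fold. In the mitosis and spindle genes 25 of 38 were negative, with a median of -0.10 and a range of -0.40 to 0.47. Chaf1b, a histone chaperone subunit, was the replication gene farthest from 0, with 784 on the TKO array and 1266 on the DKO array (log2 ratio -0.69), followed by the polymerase Pole at -0.42 and the origin protein Orc1 at -0.41. The difference between the lists has no test with 1 array per genotype. After removal of a lowess trend of ratio on signal, the median was -0.04 for the mitosis and spindle genes and -0.15 for the replication genes. In the promoters, TTTGAA was in 4 of 31 of the replication genes (12.9%), against 73.5% of the mitosis and spindle genes, and the E2F letters TTTCCCGC were in 6 of 31 (19.4%), against 0 of 34. CCAAT shares were close, in 20 of 31 replication promoters (64.5%) and 70.6% of those of the mitosis and spindle genes, and 2 or more matches were in 38.7% and 52.9%.

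**Figure D4:**
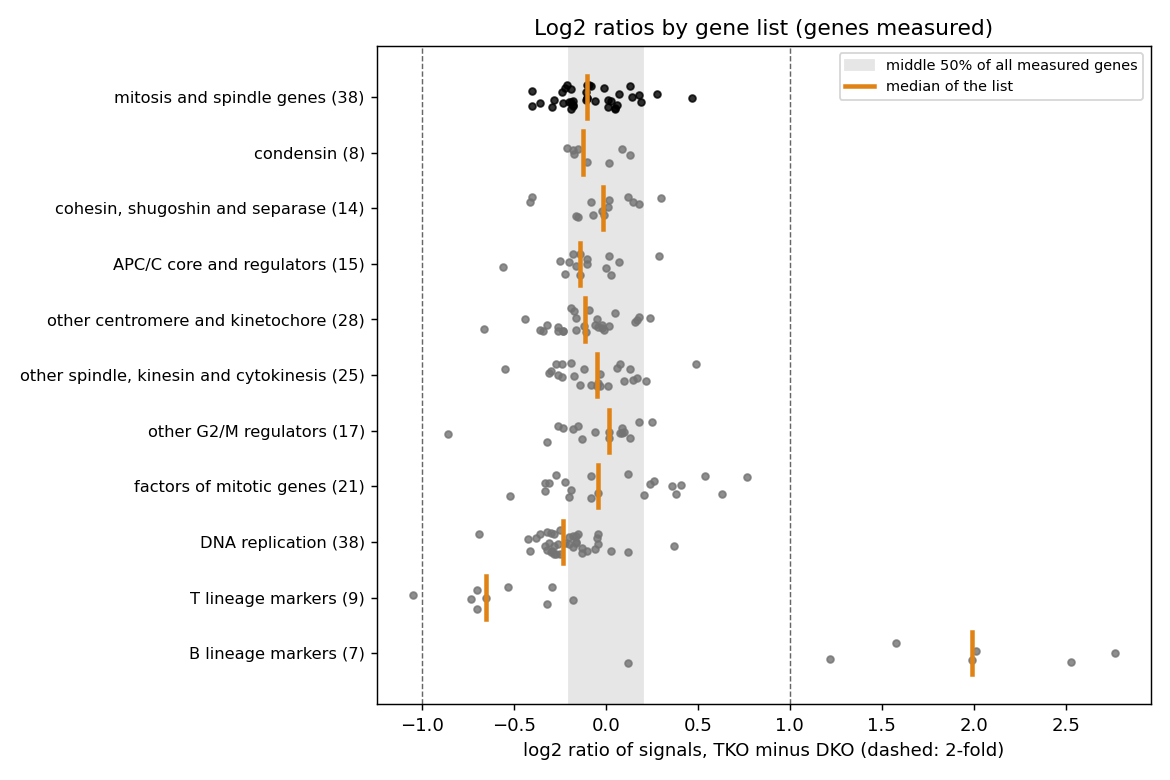
Log2 ratio of signals, TKO minus DKO (x axis), of each measured gene (points) in the mitosis and spindle genes, related lists and T and B lineage markers (rows, number of genes in brackets), with list medians as orange lines, 2-fold as dashed lines and the middle 50% of all measured genes (-0.20 to 0.20) in grey. Mitosis genes cluster about 0, replication genes lie mostly below it, T lineage markers have a median of -0.65 and B lineage markers of 1.99.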

How the data were processed

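One Affymetrix array per label (TKO and DKO) measured RNA of lineage-negative mouse thymocytes. The deposited values are linear array intensity, a signal for each probe set, made with MAS5 per the submitters' processing notes, which give no version or settings. MAS5 corrects for background and applies a single scaling factor to an array. The platform annotation listed 1 gene for 34945 of the 45037 probe sets and several for 932; 9160 were unlisted and stay unnamed; 99.4% of the single-gene ones were matched by Entrez ID to RefSeq (GRCm38.p6) for current symbols and chromosomes.

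The brightest probe set of a gene, by mean log2 signal over the arrays, stood for it. Signals below the median of their array were raised to it (the floor). The log2 ratio is TKO minus DKO. No test was possible with 1 array per label, and the number of arrays limits the precision, so sizes of 2-fold and 1.5-fold were used and counts were set beside those of all genes. The members and lists were chosen with earlier results of these data known. All members are named. Of each pathway list, the 3 genes farthest from 0 and any past 2-fold were named. Foxm1, Mybl2, E2f1, Lin9, Lin54 and Rbl2 were named in addition. The other Rbl and E2f genes were named after the data were seen. Marker lists are given as summed signals and counts over T lineage, B lineage and myeloid genes in the report, and the others in the closing section. The background of genes as bright as the members was added after seeing the data. Alternatives were other scalings (median, quantile, lowess with span 0.3), floors at the 25th and 75th percentile, the mean over probe sets, no _x_at or _s_at probe sets, a 1.5-fold size, and no genes on X and Y. The procedure was run on simulated data with planted differences beyond 2-fold in bright genes. That run does not bear on the smaller differences of the mitosis and spindle genes, on dim probe sets or on error between arrays. Calculations used Python 3.11.15, numpy 2.4.6, pandas 2.3.3, statsmodels 0.14.6 and matplotlib 3.10.9.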

Additional observations from a re-analysis of the deposited data

How the results depend on the processing

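No paired analysis was possible because each label has 1 array and the result comes from no test. The mitosis and spindle genes had 0 members 2-fold higher and 0 lower under each of the 9 alternatives, and their median log2 ratio ran from -0.10 to -0.04, with 21 (lowess) to 25 negative ratios. At a 25th-percentile floor 39 were measured, since Kif15 was then above the floor on the TKO array alone, at a log2 bound of 0.85. As the mean over probe sets Nek2 was at 0.65, Spc25 at -0.61, Bub1 at 0.25 and Bub3 at 0.11, and without _x_at and _s_at probe sets Pttg1 was at 0.12 and Cdc25c at 0.19. The all-gene counts moved with the floor: 962 higher and 434 lower at the 25th percentile, 147 and 14 at the 75th. At 1.5-fold they were 977 and 369, against 404 and 60 at 2-fold. Medians of small role groups moved: chromosome markers to -0.21 (quantile) and -0.19 (lowess), anaphase genes to -0.09 (quantile), -0.07 (lowess) and -0.01 (mean over probe sets), and checkpoint genes to 0.11 and mitotic gene factors to 0.21 as the mean over probe sets. At the 25th-percentile floor 1 other mitosis gene, the centromere and kinetochore list's Mad1l1, was 2-fold lower. As the mean over probe sets 1 other, Anapc7 of the anaphase-promoting complex, was lower, and of replication genes Pola1 was the 1 higher and Mcm6 the 1 lower. At 1.5-fold, other mitosis genes were 2 higher and 2 lower, and 4 and 7 as the mean over probe sets, 2 and 4 after quantile normalization, 2 and 3 at the 25th-percentile floor and 1 and 1 at the 75th. The cause of these shifts was not tested.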

Other observations

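Marker lists of further cell types, summed over their genes, were as follows. The natural killer list gave 4517 on the TKO array and 2985 on the DKO array, with Klrd1 2.12-fold higher. The dendritic list gave 547 on the TKO array and 423 on the DKO array, with Flt3, Siglech and Xcr1 below the floor on both. The stroma and epithelium list gave 1372 on the TKO array and 1318 on the DKO array, and the erythroid list 142 on the TKO array and 153 on the DKO array, with Alas2, Hba-a1 and Klf1 below the floor on both. Of the later T stage genes, Cd4 was below the floor on both arrays, while Cd8b1 had 1080 on the TKO array and 975 on the DKO array. The myeloid list summed to 3642 on the TKO array and 1975 on the DKO array.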
